A study of Homo sapiens with 9 samples.

Results

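The 10 genes *INHBA*, *INHBB*, *FST*, *FSTL3*, *ACVR1*, *ACVR1B*, *ACVR2A*, *ACVR2B*, *GDF11* and *GDF15* were chosen by symbol as ligands, binders and receptors of activin, follistatin and GDF signaling, and all 10 were found among the 60708 genes of the count files. The libraries are described as untreated MDA-MB-231, an established triple-negative breast cancer line of the basal-B class, grown in DMEM with 10% serum. That identity was not tested for the clone libraries, and marker levels are given below. There were 3 libraries labelled WT and 3 of each of the clones CS16 and CS19, which carry the genotype label *SNAI1*-KO. According to the methods, CRISPR/Cas9 with a pool of guides and a repair template was used against *SNAI1*, puromycin selected the cells, and each clone grew from a single cell. Each clone is thus a single line, and the WT cells are described neither as cloned nor as selected. The labels do not say whether the 3 libraries of a group came from separate cultures, so p-values measure only the spread between these libraries, which may be technical. The pooled comparison with 6 *SNAI1*-KO libraries further counts libraries of the same clone as replicates.

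Activins are secreted dimers of inhibin beta subunits, which *INHBA* and *INHBB* encode. They bind the type II receptors *ACVR2A* and *ACVR2B*, which then recruit and phosphorylate a type I receptor such as *ACVR1B*, and the signal passes to SMAD2 and SMAD3. The follistatins *FST* and *FSTL3* bind activins outside the cell and block their access to the receptors. *GDF11* is a related ligand that shares the type II receptors, whereas *GDF15* is a distant relative and a stress-induced factor that acts through *GFRAL* and *RET*. In mesenchymal tumor cells this branch runs beside TGFβ, whose signals it shares from SMAD2 and SMAD3 onwards.

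The libraries held between 19527195 and 28627777 counted read pairs, and a level of 3 counts, taken as the floor, lay between 0.105 and 0.154 CPM, which are counts scaled to the size of the library. Intervals and floors cover counting error only. *SNAI1* had 16 to 38 counts in the WT libraries, 26 to 49 in CS16 and 57 to 94 in CS19, and its log2 fold change in the libraries labelled *SNAI1*-KO over WT was 0.89 ± 0.42 (SE, adjusted p = 0.0838, edgeR's quasi-likelihood test). In CS19 over WT it was 1.32 ± 0.42 (adjusted p = 0.0310), and the adjusted p rose to as much as 0.101 when single libraries (WT-1, WT-3, CS19-2 or CS19-3) were left out. The pooled value passed the threshold without WT-2 (1.405, adjusted p = 0.0146), without CS16-1 (1.03, adjusted p = 0.0454) and without a filter on low counts (1.01, adjusted p = 0.0459). *SNAI1* was lower in CS16 than in CS19 (-0.92 ± 0.24, SE, adjusted p = 0.0106), with an adjusted p of 0.271 in a fit of all 3 groups. Gene-level counts do not show whether the sites the guides cut are intact. *CDKN2A*, *CDKN2B* and *MTAP* at 9p21, a region that is deleted in MDA-MB-231, had 0 counts in all WT libraries. In each library of both clones *CDKN2A* had between 1106 and 1575 counts, *CDKN2B* between 235 and 326 and *MTAP* between 2139 and 3137. The summed level of 10 basal-B markers was 7644 to 8474 CPM in WT, 615.8 to 637 CPM in CS16 and 594.7 to 646.1 CPM in CS19, and *CD44*, a defining marker, had 0 counts in CS16 and at most 2 in a CS19 library. All 10 passed the test as lower in the clones (9 of them called). Without *KRT18*, a luminal keratin on that list, 9 of 9 were lower (8 called), with sums of 7135 to 7911 CPM in WT and 530.9 to 587.6 CPM in the clones. The sum over a list of 11 genes, 9 embryonic kidney and nephric markers with the neuronal neurofilaments *NEFL* and *NEFM*, went the other way, from 62.2 to 91.1 CPM in WT to between 253.6 and 301.1 CPM in the clones. Without the neurofilaments, left out after their values were seen, the clones had 136 to 159 CPM, with 6 higher and 2 lower of the 8 that were tested. *PAX2*, *SALL1*, *HOXD11* and both neurofilaments were at 0 in WT, and *PAX8* was at 0 in CS16. Sums of 6 fibroblast markers were 57.7 to 127 CPM in WT and 6.78 to 9.02 CPM in the clones. Those of 7 leukocyte and endothelial markers were 11.2 to 13.0 and 2.67 to 3.73 CPM, with 1 higher and 2 lower in the clones at the adjusted p in each list. Beside the counts of all these marker lists, 31.1% of all genes tested were higher and 32.6% lower at the adjusted p. Of all genes tested, 14.3% were called lower and 12.6% higher. *DCN* and *CDH5* were at 0 in WT, and *COL1A2* and *CD3E* were at 0 in both clones. These differences separate the same libraries as the genotype labels, and the 2 cannot be told apart. Their part in the results that follow was not tested. Among the WT libraries WT-2 stood apart, with a correlation of log2 CPM of 0.952 with WT-1 and 0.948 with WT-3, which correlated with each other at 0.995.

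The main picture was a loss of the activin binders and of *GDF15*. Rises of activin receptors were smaller, and none of them was called in the main fit. In both clones *FST*, *FSTL3*, *INHBA* and *GDF15* were lower than in WT, and *ACVR2B* and *ACVR1B* were higher, whereas *INHBB* was lower in CS16 alone of the clones. Of the 10 genes, 9 had an adjusted p below 0.05 in the *SNAI1*-KO libraries against WT (4 higher and 5 lower), beside 63.7% of the 19631 genes tested (31.1% higher and 32.6% lower). A gene is here said to be called when its log2 fold change was also 2 or more in size. By this rule 4 were called, all lower (under some settings *ACVR2B* was added as higher, as given with that gene), beside 26.9% of all genes (12.6% higher and 14.3% lower). Groups did not overlap in CPM for 8 genes (3 higher and 5 lower), beside 58.3% of all genes (29.7% higher and 28.6% lower). The median log2 fold change was -0.85 over the 10 genes and -0.0040 over all genes tested, and the median size regardless of sign was 1.64 and 0.967. A large part of the transcriptome thus differed, and the shares among the 10 genes are read against that background. By non-overlap, the share of the 10 genes that was higher was near that of all genes. All 10 passed the filter on low counts in this comparison. *INHBA* and *GDF15* did so only through the WT libraries, so these could be called only as lower. In RNA of whole cultures, fewer cells of a type and less RNA per cell cannot be told apart.

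**Figure D1:**
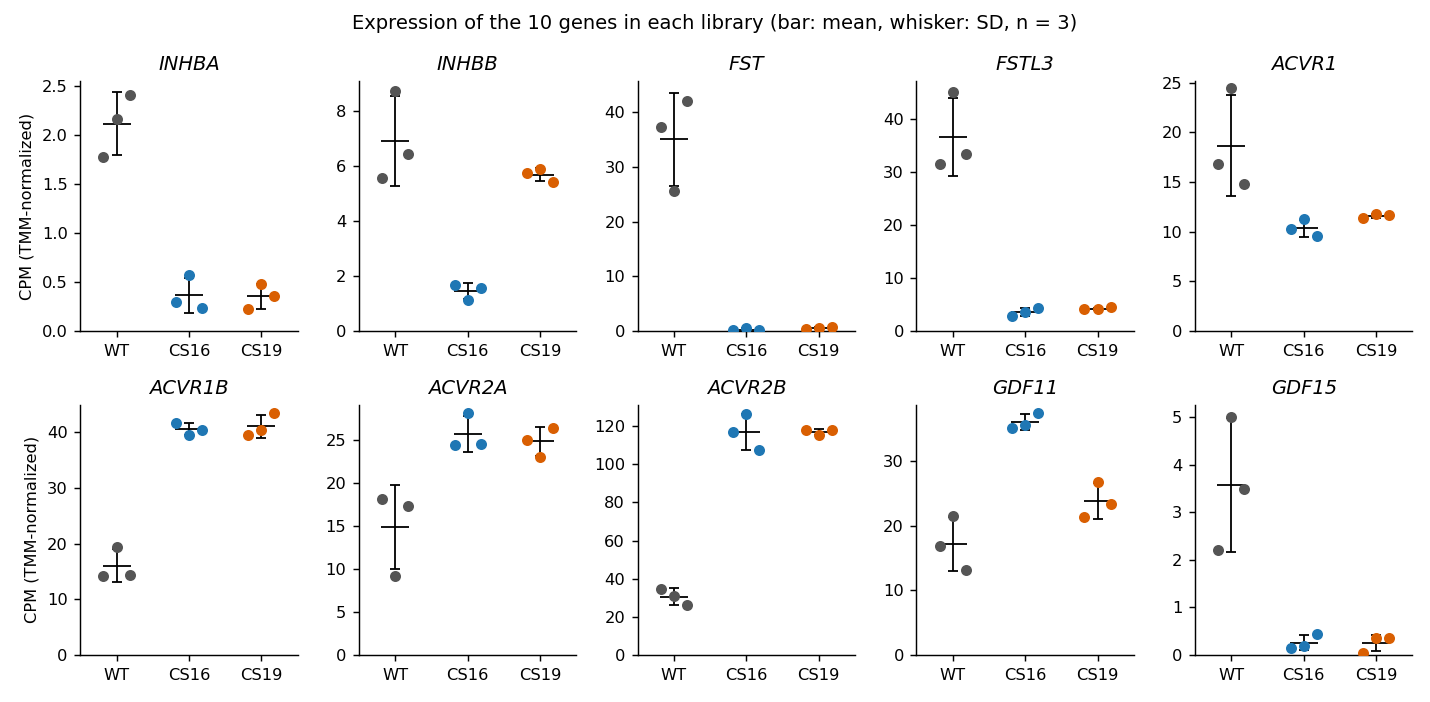
Each panel plots the TMM-normalized CPM of a gene (vertical axis, linear from 0) in the 3 WT, 3 CS16 and 3 CS19 libraries as points, with the mean as a bar and the SD as whiskers. FST, FSTL3, INHBA and GDF15 sit near the bottom in both clones, ACVR1B and ACVR2B sit well above WT, and INHBB (1.47 CPM in CS16 and 5.70 CPM in CS19) and GDF11 (36.1 and 23.8 CPM) separate the clones from each other.

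Promoter sequence is shown for the gene that fell most (*FST*), the gene that separated the clones most (*INHBB*) and the receptor that rose most (*ACVR2B*). Each is the stretch that ends just before the annotated start of the gene. The sequences are those of RefSeq on GRCh38.p14, read 5′ to 3′ on the + strand, at chr5:53480379-53480625 for *FST*, chr2:120345886-120346135 for *INHBB* and chr3:38453640-38453889 for *ACVR2B*. Capitals mark the E-box CAGGTG, searched as CAGGTG or CACCTG on either strand, to which factors of the SNAI family are known to bind.
FST: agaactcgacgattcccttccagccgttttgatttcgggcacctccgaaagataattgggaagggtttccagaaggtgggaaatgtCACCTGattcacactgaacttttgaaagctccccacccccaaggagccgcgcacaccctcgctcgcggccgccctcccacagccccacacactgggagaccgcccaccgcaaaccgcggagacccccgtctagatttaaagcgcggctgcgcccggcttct
INHBB: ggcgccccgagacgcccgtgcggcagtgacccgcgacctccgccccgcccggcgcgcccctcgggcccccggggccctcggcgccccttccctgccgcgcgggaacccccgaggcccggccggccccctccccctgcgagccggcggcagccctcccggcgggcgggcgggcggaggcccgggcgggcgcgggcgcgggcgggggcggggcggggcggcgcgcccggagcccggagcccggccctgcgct
ACVR2B: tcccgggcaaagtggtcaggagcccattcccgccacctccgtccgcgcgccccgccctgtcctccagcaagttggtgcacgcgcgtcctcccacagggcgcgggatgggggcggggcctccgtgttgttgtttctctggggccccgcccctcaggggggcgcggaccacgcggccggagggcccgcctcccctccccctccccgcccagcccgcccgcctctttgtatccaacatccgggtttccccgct
The *FST* stretch of 247 bases held the motif once, with its first base 161 bases before the annotated start, and neither of the other stretches held it. Among the annotated starts of the 10 genes, 7 had such a stretch wholly upstream of the gene, and among these 7 the motif was in that of *FST* alone. A window before a further start of *ACVR1B*, which lies inside that gene, also held it once. It occurred in 17.5% of the 35116 promoter windows of 250 bases in the table. GC content was 59.9% for *FST*, 89.6% for *INHBB* and 74.0% for *ACVR2B*, with a median of 58.0% over all windows. A match is a description of the letters and not evidence of binding.

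The activin subunits came first among the ligands. *INHBA* (ENSG00000122641.11, chr7:41667168-41705834, − strand) encodes the beta A subunit, from which activin A is built. Its counts were 36, 38 and 47 in WT, 6, 12 and 6 in CS16 and 5, 11 and 11 in CS19. Every clone library lay below every WT library, and the clones overlapped each other. The mean level in CPM was 2.12 ± 0.32 for WT, 0.369 ± 0.179 for CS16 and 0.355 ± 0.125 for CS19 (SD, n = 3). Its log2 fold change was -2.54 ± 0.31 in *SNAI1*-KO over WT (SE, adjusted p = 2.40e-05, edgeR), -2.49 in CS16 (adjusted p = 0.00136) and -2.51 in CS19 (adjusted p = 0.000767), and it was called in each. The transcript was low in all groups, at 0.816 TPM (a level per exon length, scaled to the same total in each library) in WT. The antisense gene *INHBA-AS1* overlaps 248 of its exon bases (2.99%), and since strand was not used in the counting, reads from that stretch could belong to either.

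*INHBB* (ENSG00000163083.6, chr2:120346136-120351803, + strand), which encodes the beta B subunit of activin B, was the more abundant subunit per length in all 9 libraries. Its level was 5.57, 8.73 and 6.47 CPM in the WT libraries, 1.67, 1.15 and 1.59 CPM in those of CS16 and 5.77, 5.90 and 5.43 CPM in those of CS19, from 24 to 166 counted pairs a library. The CS16 libraries lay below all others, whereas CS19 overlapped WT. Means were 6.92 ± 1.63 (WT), 1.47 ± 0.28 (CS16) and 5.70 ± 0.24 CPM (CS19; SD, n = 3). The gene fell by 2.20 ± 0.30 on the log2 scale in CS16 against WT (SE, adjusted p = 0.000600) and was called there, while the difference for CS19 over WT was -0.24 ± 0.24 (adjusted p = 0.431). A direct comparison of the clones gave -1.95 ± 0.19 for CS16 over CS19 (adjusted p = 5.70e-06), with CS16 lower in 3 of 3 libraries. Pooled over both clones, the change of -0.94 ± 0.50 did not pass the test (adjusted p = 0.123, edgeR), but a fit with the 3 groups kept apart gave -1.26 (adjusted p = 0.000245).

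*GDF11* and *GDF15* completed the ligands. *GDF11* (ENSG00000135414.10, chr12:55743122-55757264, + strand) signals through the activin type II receptors and is known from patterning of the embryonic axis. It had 342, 376 and 257 counts in WT, 716, 745 and 943 in CS16 and 471, 618 and 712 in CS19. All CS16 libraries lay above the rest, and the lowest CS19 library (21.4 CPM) fell just below the highest WT library (21.5 CPM). The rise was 1.10 ± 0.23 on the log2 scale in CS16 over WT (SE, adjusted p = 0.00489) and 0.59 ± 0.09 in CS16 over CS19 (adjusted p = 0.000232), with CS16 higher in 3 of 3 libraries. For CS19 over WT the value was 0.51 ± 0.24 (adjusted p = 0.109), which without WT-2 became 0.68 (adjusted p = 0.000186). In a fit that shared its spread with the WT libraries, the difference between the clones was 0.60 with an adjusted p of 0.153. *SARNP* on the opposite strand overlaps 378 exon bases of *GDF11* (4.29%).

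*GDF15* (ENSG00000130513.6, chr19:18374731-18389176, + strand), a secreted factor whose transcription rises with stress, had 45, 88 and 68 counts in WT. In CS16 there were 3, 4 and 11 counts and in CS19 1, 8 and 11, so that 2 clone libraries were at or below the floor of 3 counts. No clone library reached the lowest WT library. Mean CPM was 3.58 ± 1.40 for WT, 0.259 ± 0.157 for CS16 and 0.251 ± 0.178 for CS19 (SD, n = 3). On the log2 scale the difference was -3.74 ± 0.44 in *SNAI1*-KO over WT (SE, adjusted p = 1.62e-05), -3.69 in CS16 (adjusted p = 0.000706) and -3.72 in CS19 (adjusted p = 0.00136). Its receptor *GFRAL* had 0 counts in all 9 libraries, while the signaling partner *RET* had 3 counts over the WT libraries and 772 over the clones, a ratio of 119 (95% counting interval 40.5 to 577).

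Both activin binders fell in both clones. *FST* (ENSG00000134363.12, chr5:53480626-53487134, + strand) encodes follistatin, which wraps around activin and keeps it from its receptors. Counts of 757, 448 and 819 in WT stood against 3, 11 and 5 in CS16 and 8, 13 and 22 in CS19. The lowest WT library was thus far above all 6 clone libraries. In normalized terms *FST* stood at 35.0 ± 8.49 CPM (WT), 0.290 ± 0.205 CPM (CS16) and 0.549 ± 0.179 CPM (CS19; SD, n = 3). This was a log2 fold change of -6.33 ± 0.36 in *SNAI1*-KO over WT (SE, adjusted p = 3.46e-08), or an 80.7-fold lower level, the largest change among the 10 genes. For CS16 and CS19 taken alone it was -6.87 (adjusted p = 2.48e-05) and -5.92 (adjusted p = 1.21e-05). The clones did not differ in *FST* at the threshold (-0.96 ± 0.49 for CS16 over CS19, adjusted p = 0.176), although leaving out CS16-2 gave -1.65 (adjusted p = 0.0402).

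*FSTL3* (ENSG00000070404.10, chr19:676392-683392, + strand), the follistatin-like binder of activins and *GDF11*, is itself known as a gene that activin and TGFβ induce. The WT libraries had 31.5, 45.1 and 33.5 CPM, those of CS16 2.89, 3.58 and 4.46 CPM and those of CS19 4.18, 4.16 and 4.48 CPM. Again no clone library came near WT, and the means were 36.7 ± 7.35 (WT), 3.64 ± 0.78 (CS16) and 4.28 ± 0.18 CPM (CS19; SD, n = 3). *FSTL3* fell by 3.21 ± 0.18 on the log2 scale in *SNAI1*-KO against WT (SE, adjusted p = 4.07e-08). The single clones gave -3.30 (adjusted p = 5.10e-05) and -3.06 (adjusted p = 2.92e-05), and the difference between them was -0.23 ± 0.18 (adjusted p = 0.380).

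**Figure D2:**
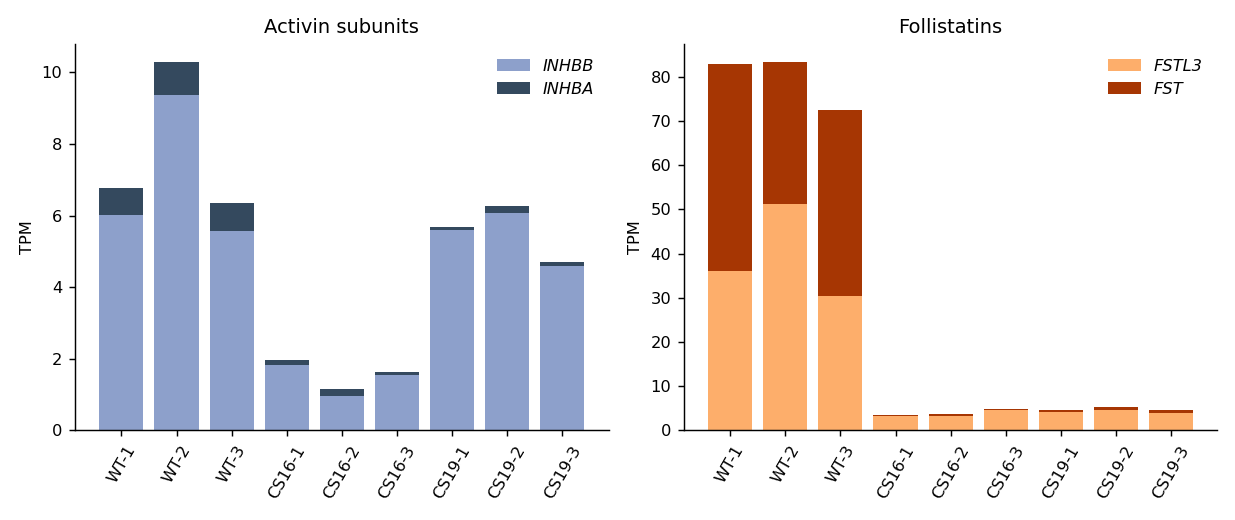
Stacked bars give the level per length in TPM (vertical axes, linear from 0 and on different scales) of the activin subunits INHBB and INHBA (left) and of the follistatins FSTL3 and FST (right) in each of the 9 libraries. The follistatin sum is between 72.6 and 83.3 TPM in WT and at most 5.20 TPM in a clone library, whereas the subunit sum in CS19 (4.72 to 6.26 TPM) lies close to that of WT.

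Set against each other per length, the binders outweighed the subunits in WT, did so by less in CS16, and were level with or below them in CS19. The summed level of *FST* and *FSTL3* was 79.6 ± 6.09 TPM in WT, 4.03 ± 0.67 TPM in CS16 and 4.87 ± 0.29 TPM in CS19 (SD, n = 3). That of *INHBA* and *INHBB* was 7.80 ± 2.16, 1.59 ± 0.40 and 5.55 ± 0.78 TPM. The ratio of binders to subunits in TPM was 12.3, 8.10 and 11.4 in the WT libraries, 1.81, 3.22 and 2.94 in CS16 and 0.827, 0.832 and 1.00 in CS19. The 3 groups did not overlap in this ratio, with WT highest and CS19 lowest. It was computed after the changes of its parts were known and is given as a description, with no test. Within the binders, *FST* made up 51.0 ± 10.9% of the TPM in WT, 7.97 ± 5.16% in CS16 and 12.3 ± 3.21% in CS19. Within the subunits, *INHBA* made up 10.8 ± 1.93% in WT, 9.36 ± 5.95% in CS16 and 2.35 ± 0.78% in CS19.

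Among the receptors, those of activin itself rose. *ACVR2B* (ENSG00000114739.14, chr3:38453890-38493142, + strand), a type II receptor that binds activins and *GDF11* with high affinity, had 701, 546 and 505 counts in WT, 2387, 2642 and 2697 in CS16 and 2596, 2656 and 3599 in CS19. All clone libraries lay above all WT libraries, and the clones overlapped. WT had a mean of 30.6 ± 4.35 CPM and CS16 of 116.8 ± 9.40 CPM (SD, n = 3), and the CS19 libraries were all at 115.2 CPM or above. Its log2 fold change was 1.94 ± 0.14 in *SNAI1*-KO over WT (SE, adjusted p = 3.12e-07), 1.96 in CS16 and 1.97 in CS19, which passed the test but stayed just under the fold cut-off of 2. Other settings took it over the cut-off, so that it was called higher. DESeq2 did so in CS16 (2.01) and CS19 (2.00), upper-quartile scaling in CS19 (2.00), and no filter on low counts in the pooled fit and both clones (2.04 to 2.05). Leaving out WT-1 did so in all 3 (2.03 to 2.05), as did leaving out CS16-3 in CS16 (2.03) and CS19-1 or CS19-2 in CS19 (2.00 and 2.01). The difference between the clones was -0.01 ± 0.07 (adjusted p = 0.945).

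*ACVR2A* (ENSG00000121989.15, chr2:147844517-147930826, + strand), the other type II receptor, rose by less. Counts were 366, 161 and 336 in WT, 498, 589 and 615 in CS16 and 550, 531 and 806 in CS19. No clone library overlapped WT, in which WT-2 (9.18 CPM) lay far below WT-1 and WT-3 (18.1 and 17.3 CPM). The log2 fold change of 0.76 ± 0.21 in *SNAI1*-KO over WT (SE, adjusted p = 0.00733) stayed below an adjusted p of 0.05 when any single library was left out. It was smaller than the median size of 0.967 over all genes tested. For CS16 it was 0.82 (adjusted p = 0.0386) and for CS19 0.78 (adjusted p = 0.0467). Leaving out any CS16 library raised the first to an adjusted p of 0.104 to 0.110, and leaving out any CS19 library, WT-1 or WT-3, or scaling by RLE, raised the second to between 0.0512 and 0.126. Without WT-2 the values were 0.54 (adjusted p = 0.000950) and 0.51 (adjusted p = 0.000761). *ORC4* and a further gene on the opposite strand overlap 431 and 110 of its exon bases (6.68% and 1.71%). Per length, the ratio of *ACVR2B* to *ACVR2A* in TPM was 0.786, 1.39 and 0.617 in WT, and it was 1.87 ± 0.09 in CS16 and 1.94 ± 0.11 in CS19 (SD, n = 3).

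*ACVR1B* (ENSG00000135503.13, chr12:51951699-51997078, + strand) encodes ALK4, the type I receptor that phosphorylates SMAD2 and SMAD3 on activin binding. It had 287, 340 and 280 counts in WT, 850, 829 and 1014 in CS16 and 867, 931 and 1326 in CS19. Both clones stood above WT without overlap, at 40.5 ± 1.07 and 41.1 ± 2.09 CPM against 16.0 ± 2.96 CPM (SD, n = 3). *ACVR1B* rose by 1.35 ± 0.15 on the log2 scale in *SNAI1*-KO over WT (SE, adjusted p = 1.16e-05), with 1.37 in CS16 (adjusted p = 0.000903) and 1.40 in CS19 (adjusted p = 0.000843). Between the clones the difference was -0.03 ± 0.07 (adjusted p = 0.846).

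*ACVR1* (ENSG00000115170.16, chr2:157736251-157876330, − strand) encodes ALK2, a type I receptor that activates the BMP-responsive SMADs and was the single receptor of the 4 that was lower in the clones. The counts were 340, 428 and 288 in WT, 209, 236 and 240 in CS16 and 250, 271 and 356 in CS19. In CPM all clone libraries lay below WT, and all CS16 libraries lay below all CS19 libraries. The log2 fold change was -0.77 ± 0.18 in *SNAI1*-KO over WT (SE, adjusted p = 0.00282), -0.82 in CS16 (adjusted p = 0.0246) and -0.65 in CS19 (adjusted p = 0.0531). Leaving out any library of CS16 raised its value above the threshold (adjusted p from 0.0680 to 0.0896). CS19 passed the threshold without WT-2 (-0.43, adjusted p = 0.00608), without WT-3 (-0.78, adjusted p = 0.0310) with RLE scaling (-0.67, adjusted p = 0.0463) and in the fit of all 3 groups (-0.69, adjusted p = 0.0139). The 2 clones differed by -0.17 ± 0.10 for CS16 over CS19 (adjusted p = 0.253). The ratio of *ACVR1B* to *ACVR1* in TPM went from 1.51 ± 0.16 in WT to 6.85 ± 0.65 in CS16 and 6.16 ± 0.28 in CS19 (SD, n = 3).

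**Figure D3:**
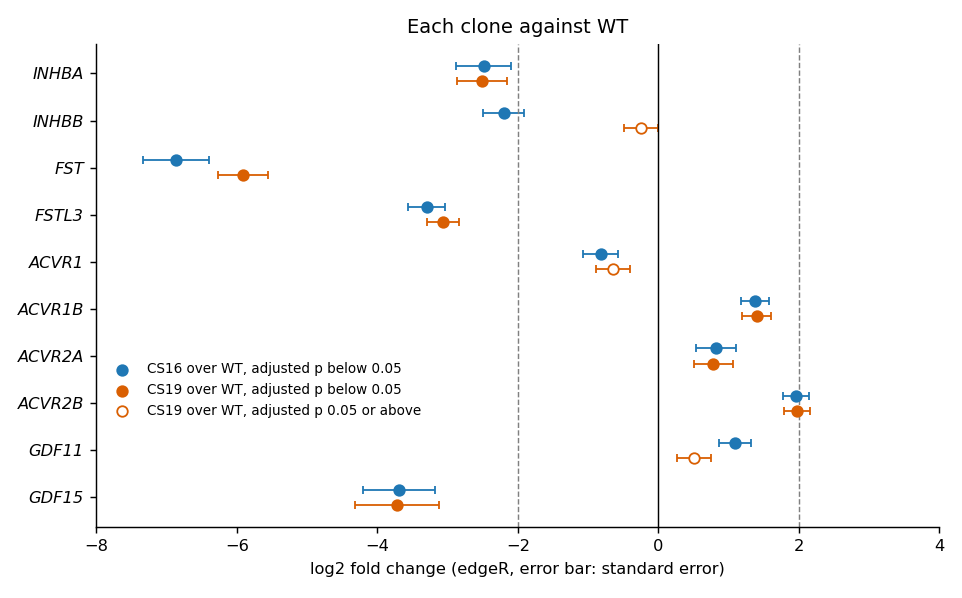
Points give the log2 fold change of each gene in CS16 over WT (blue) and CS19 over WT (orange) with the standard error as whiskers; filled points have an adjusted p below 0.05 and dashed lines mark a log2 fold change of 2. Each clone was compared with the same 3 WT libraries, so the pairs of points are not independent, and the clones lie apart for INHBB (-2.20 and -0.24) and GDF11 (1.10 and 0.51).

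Counted clone by clone, CS16 against WT had an adjusted p below 0.05 for 10 of the 10 genes, 4 higher and 6 lower, beside 55.6% of all genes tested (27% higher and 28.6% lower). Of these, 5 were called, all lower, beside 27.1% of all genes (11.8% higher and 15.3% lower). In CPM 10 did not overlap, 4 higher and 6 lower, beside 67.4% (33.8% higher and 33.7% lower). In CS19 against WT 7 of the 10 passed the adjusted p, 3 higher and 4 lower, beside 52.9% (26.3% higher and 26.6% lower). There, 4 were called, all lower, beside 26.4% (12% higher and 14.4% lower), and 8 did not overlap, 3 higher and 5 lower, beside 65.3% (33.2% higher and 32.1% lower). In both fits *INHBA*, *FST* and *GDF15* passed the filter on low counts only through the WT libraries, so they could be called only as lower. These comparisons share their WT libraries. Between CS16 and CS19, 8 of the 10 passed the filter on low counts, and 2 of them (*INHBB* and *GDF11*) had an adjusted p below 0.05, 1 lower and 1 higher in CS16, beside 27.4% of all genes (14.7% higher and 12.7% lower). Groups did not overlap for 3, 1 higher and 2 lower, beside 40.5% (20.4% higher and 20.1% lower). With the fold cut-off 0 were called by edgeR and 0 by DESeq2, beside 1.13% of all genes (0.633% higher and 0.496% lower), and 2 had an unadjusted p below 0.05. *INHBA* and *GDF15* could not be compared between the clones at this depth.

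The order of levels per length changed between the groups. In WT it ran from *FST* (40.4 TPM) and *FSTL3* (39.2 TPM), which overlapped, through *ACVR1B* (9.16 TPM), *ACVR2A* (7.33 TPM), *INHBB* (6.99 TPM), *GDF11* (6.39 TPM), *ACVR2B* (6.34 TPM), *ACVR1* (6.20 TPM) and *GDF15* (5.53 TPM), whose ranges overlapped from each to the next, down to *INHBA* (0.816 TPM). In CS16 the highest were *ACVR2B* (23.1 TPM) and *ACVR1B* (22.4 TPM), followed by *GDF11* (12.8 TPM) and *ACVR2A* (12.4 TPM), with each of these pairs overlapping. Below them came *FSTL3* (3.72 TPM) and *ACVR1* (3.27 TPM), which overlapped, then *INHBB* (1.45 TPM), and at the bottom *GDF15* (0.384 TPM) and *FST* (0.311 TPM), which overlapped, and *INHBA* (0.134 TPM). CS19 had *ACVR2B* (22.6 TPM) and *ACVR1B* (21.98 TPM) at the top as well, again overlapping, then *ACVR2A* (11.6 TPM), *GDF11* (8.26 TPM), *INHBB* (5.42 TPM), *FSTL3* (4.27 TPM) and *ACVR1* (3.58 TPM), each of which lay above the next in every library. *FST* (0.598 TPM), *GDF15* (0.361 TPM) and *INHBA* (0.131 TPM) were last, and each overlapped the next. From the head of the order in WT, *FST* thus moved to its lower part in both clones and *FSTL3* to its middle.

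The rest of the pathway was described with 8 lists of 98 genes in all, of which 78 passed the filter on low counts in *SNAI1*-KO against WT. There, 21 were called higher and 17 lower, 48.7% of those that passed, beside 26.9% of all genes (12.6% higher and 14.3% lower). The shares over all genes also stand beside the calls of each list below. The share of 48.7% is over genes that passed through either group and is a description. List genes with very few counts in 1 group passed only through the other group, and could be called only as higher in that other group. With CS16 alone 22 were called higher and 16 lower of 76 that passed (50%, beside 27.1% of all genes), and with CS19 alone 22 higher and 15 lower of 77 (48.1%, beside 26.4%). Between the clones 0 were called by edgeR and 0 by DESeq2, although 31 of the 73 that passed had an adjusted p below 0.05, beside 27.4% of all genes, and 40 an unadjusted one.

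Other ligands of the family numbered 17, of which 7 passed the filter, 3 were called higher and 1 lower (median log2 fold change 1.26). *GDF7*, a BMP-like ligand, rose from 1.32 to 46.0 CPM (5.13 ± 0.32 on the log2 scale, SE, adjusted p = 8.18e-08). *GDF6*, of the same subfamily, had 0 counts in WT and was at least 41.4-fold higher in the clones, taken against a floor of 3 counts. *GDF5*, the third of this subfamily and a ligand of joint formation, went the other way and fell by 5.54 on the log2 scale (adjusted p = 9.73e-09). Of 13 other receptors and co-receptors, 8 passed the filter and 4 were called, all higher (median 1.43). Genes with very few counts in WT, such as *RET* and *AMHR2*, passed only through the clone libraries and could be called only as higher. The direction of the 4 calls and the median are limited by this. The 4 called receptors included *RET* and *AMHR2*, the receptor of anti-Müllerian hormone, which had 1 count over the WT libraries (ratio of the clones to WT 51.2, 95% counting interval 9.004 to 2041).

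Extracellular binders and membrane antagonists other than the follistatins moved in both directions. Of 14, 11 passed the filter, 4 were called higher and 4 lower (median -0.49). The BMP antagonist *CHRD* had 2 counts over WT and 567 over the clones (ratio 131, 95% counting interval 36.0 to 1083), and *IGSF1* had 1 and 155 (ratio 71.5, interval 12.7 to 2843). The BMP antagonists *CHRDL1* and *NOG* were lower, with log2 fold changes of -5.02 and -3.39 (adjusted p = 2.54e-05 and 7.48e-06). Among 7 proprotein processing enzymes, which cut ligand precursors or their binders, 3 were called higher and 1 lower (median 1.97). The convertase *PCSK6* rose from 0.517 to 51.1 CPM (6.60 ± 0.25 on the log2 scale, SE, adjusted p = 1.93e-09), and *TLL1* had 1 count over WT and 338 over the clones (ratio 156, 95% counting interval 27.8 to 6177). *BMP1*, of the same protease family as *TLL1*, fell by 2.46 (adjusted p = 4.62e-07).

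Downstream, 14 of 15 SMAD transducers and nuclear partners passed the filter, with 3 called higher and 3 lower (median -0.03). *SMAD3*, a direct transducer of activin signals, stood at 218 ± 71.3 CPM for WT (SD, n = 3) and 27.7 CPM for the clones, a difference of -2.98 ± 0.17 on the log2 scale (SE, adjusted p = 4.57e-08). *SMURF2*, a ubiquitin ligase that turns over receptors and SMADs, fell by 2.76 (adjusted p = 5.98e-08). *SMAD9* and *SMAD6*, which belong to the BMP branch as transducer and inhibitor, rose by 4.03 and 2.51 (adjusted p = 1.02e-08 and 9.27e-07).

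Of 12 genes known to respond to SMAD2 and SMAD3, 11 passed the filter, 7 were called lower and 3 higher (median -2.24). *TGFBI*, an extracellular matrix protein named for its induction by TGFβ, had 7306 counts over the WT libraries and 8 over the 6 clone libraries. *GSC* and *EOMES*, which are nodal and activin targets of the early embryo, had 0 counts in WT and were at least 102-fold and 34.6-fold higher in the clones, against the floor of 3 counts. These genes passed the filter only through the clone libraries and could be called only as higher. *TGFBI* passed only through the WT libraries and could be called only as lower. Also called lower were *PMEPA1*, *CCN2*, *LTBP2*, *JUNB* and *TAGLN*.

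Genes of the integrated stress response and p53 targets were listed because both pathways are known to induce *GDF15*. Most of the listed genes are, like *GDF15*, targets of these pathways. All 10 of the first passed the filter, with 4 higher and 3 lower at the adjusted p and 1 called lower, *PPP1R15A* (-2.61, adjusted p = 2.59e-07), a phosphatase subunit that ends the response (median -0.03). Chosen after their values were seen, *ATF4*, the central transcription factor of this response, was higher by 1.87 ± 0.16 (SE, adjusted p = 1.06e-06) and *DDIT3*, one of its targets, differed by -1.27 ± 0.27 (adjusted p = 0.00170). Of 10 p53 targets 5 were higher and 4 lower at the adjusted p, and 1 was called higher, *SESN1* (3.03, adjusted p = 4.52e-07), while the median was 0.59. Beside both lists, 63.7% of all genes tested passed the adjusted p (31.1% higher and 32.6% lower). Called genes made up 26.9% of all genes, a larger share than in either list.

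**Figure D4:**
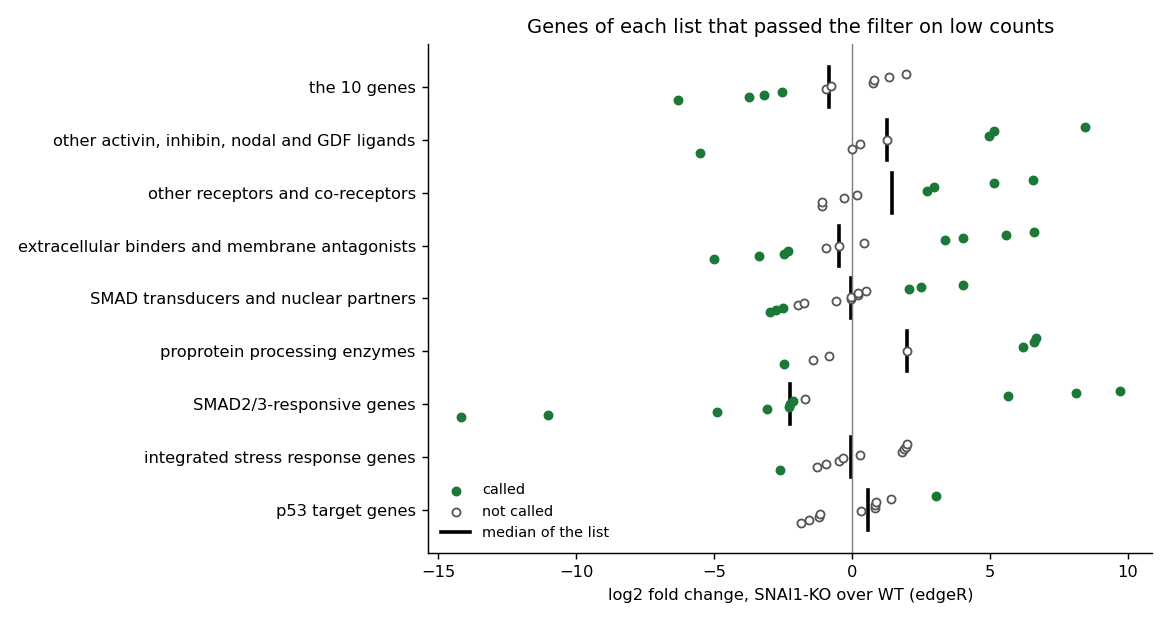
Each point is a gene that passed the filter on low counts, placed by its fitted log2 fold change in SNAI1-KO over WT (horizontal axis), in the 10 genes (top) and in each of the 8 lists; green points were called and black bars are medians. The medians are -2.24 for the SMAD2/3-responsive genes and 1.97 for the processing enzymes, and the positions of GDF6, GSC and EOMES, which had 0 counts in WT, depend on the prior count of the fit.

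For each of the 10 genes, the gene with the most similar pattern over the 9 libraries was sought by Pearson's r of log2(CPM + 1) among 19630 others. These were *SPAG5* for *INHBA* (0.991), *FHOD3* for *INHBB* (0.989), *ATP1B1* for *FST* (0.999), *IFFO2* for *FSTL3* (0.998) and *NBR2* for *ACVR1* (0.991). For *ACVR1B* it was *HS3ST3A1* (0.998), for *ACVR2A* *LRRC58* (0.996), for *ACVR2B* *ZSCAN23* (0.998), for *GDF11* *NSD1* (0.976) and for *GDF15* *LINC01348* (0.995). The libraries fall into WT and clones, and all points share that split. For *INHBB* and *GDF11* 23 genes each exceeded an r of 0.95, compared with between 731 and 2495 for the other 8 genes.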

How the data were processed

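The authors sequenced ribosome-depleted total RNA from both ends with a stranded kit. Per the file headers and labels, reads were trimmed (Trimmomatic 0.36), aligned to GRCh38 (STAR 2.7.2b) and counted per gene with featureCounts 2.0.0 on gencode release 38, keeping non-chimeric pairs in which both mates aligned with a mapping quality of 30 or more. The counting ignored strand. The deposited files hold these raw counts, 1 file a library, with nothing pooled or normalized. Copies made in amplification cannot be removed from such counts, and pairs that were not placed uniquely are missing from them.

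Groups came from the sample labels. Low counts were removed with filterByExpr and libraries scaled by TMM, and edgeR's quasi-likelihood test (edgeR 4.0.16, R 4.3.3) was run on all remaining genes of each comparison, with Benjamini-Hochberg adjustment. Calls needed an adjusted p below 0.05 together with a log2 fold change of 2 or more, up or down. The comparisons were *SNAI1*-KO (6 libraries) against WT (3), each clone against WT, and CS16 against CS19. CPM used TMM-scaled totals, and TPM used the exon lengths in the files. Named genes were the 10 members, the 2 largest changes in each direction among the called genes of each list, the gene most similar to each member, *SNAI1* and the 9p21 neighbours. A gene that this rule names is not reported here. *RET* in its relation to *GDF15*, *GFRAL*, *ATF4*, *DDIT3*, *CD44* and the other members of the marker and SMAD2/3-responsive lists that are named were picked out after their values were seen. The members and lists were chosen with earlier results of these data known. Alternatives were DESeq2 1.42.0, RLE and upper-quartile factors, no filter, a filter of 10 counts in 3 or more libraries, removal of the 100 highest genes, a replicate block, a shared fit of the 3 groups, no fold cut-off, each library left out in turn, and CPM on raw totals or in place of TPM. The fits were run on simulated counts with 200 known changes first. Sequences came from RefSeq and exon overlaps from gencode release 44.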

Additional observations from a re-analysis of the deposited data

Results flagged for a closer look

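Of the 10 genes, 8 passed the filter on low counts in the direct comparison of CS16 with CS19. For 2 of these 8 the clones, which carry the same genotype label, differed at an adjusted p below 0.05, beside 27.4% of all genes tested. *INHBB* was lower in CS16, with a log2 fold change of -1.95 ± 0.19 for CS16 over CS19 (SE, adjusted p = 5.70e-06, edgeR's quasi-likelihood test) and all 3 CS16 libraries below all 3 CS19 libraries. *GDF11* was higher in CS16, with a log2 fold change of 0.59 ± 0.09 (SE, adjusted p = 0.000232), and again the 3 libraries of each clone did not overlap. *INHBB* kept its call at the adjusted p under every alternative run for it (adjusted p at most 0.00247), whereas *GDF11* lost it in the shared fit of the 3 groups (adjusted p = 0.153).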

How the results depend on the processing

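Of the values for the 10 genes against WT under the alternatives, none changed direction. In *SNAI1*-KO against WT, 169 kept their side of the threshold and 1 gained significance, which was *INHBB* in the shared fit of the 3 groups. In CS16 against WT 7 lost significance, and in CS19 against WT 6 lost and 5 gained it, all of them for *ACVR1*, *ACVR2A* or *GDF11*. Values close to 0 between CS16 and CS19 changed sign, none of them past the threshold. For *ACVR1B* this was 0.02531 without CS19-3 (range over left-out libraries -0.04418 to 0.02531). For *ACVR2A* it was -0.02186 without CS16-2 and -0.002813 without CS19-2 (range -0.02186 to 0.09803). For *ACVR2B* it was 0.01174 with DESeq2, 0.003141 with RLE factors, 0.05155 without CS16-3, 0.008551 without CS19-1 and 0.00485 without CS19-3 (range -0.06025 to 0.05155).

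Without a filter on low counts, the genes called were 8662 in *SNAI1*-KO against WT (5272 with it), 7513 in CS19 against WT (4990) and 352 in CS16 against CS19 (198), and 2 list genes were called higher between the clones (0). Without the fold cut-off the calls were 12506, 10342, 10014 and 4814 in the 4 comparisons (5272, 5045, 4990 and 198), with 9, 10, 7 and 2 of the 10 genes (4, 5, 4 and 0). List genes were then 33 higher and 32 lower in *SNAI1*-KO against WT, and 12 higher and 19 lower between the clones. Against WT, 30 of 59 were lower in CS16 and 29 of 59 in CS19, and the rest of each 59 were higher. The shared fit left 1 of the 10 genes (*INHBB*) with an adjusted p below 0.05 between the clones in place of 2. Leaving out single libraries gave between 0 and 1 called among the 10 genes in CS16 against CS19 (*INHBB*, without CS16-1 or CS16-3) and between 0 and 1 list genes called lower (without CS16-3). With CPM in place of TPM the ratio of binders to subunits in WT was 8.12, and the share of *INHBA* in the subunits was 23.7% in WT, 20.5% in CS16 and 5.83% in CS19. The cause of these shifts was not tested beyond the change of rule, filter or length itself.

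The replicate numbers are shared between groups, but deviations of same-numbered libraries correlated at -0.387 to 0.331, so the numbers were not taken to pair the samples. With the replicate block, 5220, 4943, 4921 and 201 genes were called in the 4 comparisons, with 4, 5, 4 and 0 of the 10 genes, and *ACVR2A* in CS16 against WT had an adjusted p of 0.0709. Depth limits *INHBA*, *FST* and *GDF15* in the clones, where single libraries held between 1 and 22 counts.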
